A study of Homo sapiens with 6 samples.

Results

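Clusters of distal accessible regions were selected from the consensus set of accessible regions of DMSO-treated HLF, a long-established line of human liver cancer cells. A region was distal if its centre lay more than 2 kb from the transcription start site (TSS) of every protein-coding or long noncoding RNA (lncRNA) transcript. Distal regions with gaps of 12.5 kb or less were stitched together, and the members are the distal regions in stitched groups of 8 or more. This rule gave 320 clusters that hold 3195 members, which is 5.33% of the 59952 distal regions and 3.65% of all 87417 regions. Accessibility was measured by ATAC-seq, in which a transposase cuts and tags DNA that nucleosomes leave free. The control group was treated with the vehicle DMSO and the other with 5 μM SNDX-5613 (revumenib), which blocks the binding of menin to MLL1, each with 3 libraries. Per the labels, both treatments lasted 24 h and all libraries belong to batch 1, while the study's methods describe a longer treatment. Per the study's methods, each replicate was 1 dish divided between the treatments, but no source says whether libraries with the same number share a dish, so the p-values measure only the spread between these libraries. The study followed the effect of menin inhibition on chromatin, and the comparisons below ask whether densely packed distal regions were called and ranked alike in both treatments.

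Distal accessible regions are places where transcription factors hold DNA open away from gene starts, and many act as enhancers. Dense groups of them often lie around genes that define a cell's identity, and stitching neighbours is the usual first step in listing super-enhancers. That name also needs a measure of activity such as histone acetylation, which these files do not give, so the groups are called clusters here. AP-1 and TEAD factors occupy many enhancers of mesenchymal and liver cancer cells, and CTCF marks sites where chromatin loops are anchored.

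The sequences of 9 members are shown because they stand for the clusters described below: the largest, those with AP-1 or TEAD matches, a cluster with higher ranks after SNDX-5613, one rich in tRNA genes, and a pair in which most members were not called after SNDX-5613. Each is the 121 bases around the strongest summit of the member with the highest mean rank in its cluster, where possible among those with a peak in all 6 libraries (hg38). The MRPL39 and MGAT4C members shown were themselves called in SNDX-5613 replicates 1 and 2, unlike most members of their clusters. Capitals mark matches to the motifs defined further on, and each line is named by the nearest protein-coding gene of its cluster.
TRIO (chr5:14264747-14264867, plus strand): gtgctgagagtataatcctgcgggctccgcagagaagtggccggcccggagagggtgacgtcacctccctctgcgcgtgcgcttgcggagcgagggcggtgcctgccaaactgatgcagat
HMGA2 (chr12:65892146-65892266, plus strand): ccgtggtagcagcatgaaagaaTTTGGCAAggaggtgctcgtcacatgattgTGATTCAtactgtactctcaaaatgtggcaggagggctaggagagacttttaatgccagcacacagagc
PPP1R3C (chr10:91652579-91652699, plus strand): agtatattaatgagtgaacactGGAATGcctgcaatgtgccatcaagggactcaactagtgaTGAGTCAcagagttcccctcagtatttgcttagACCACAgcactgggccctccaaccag
SNAI1 (chr20:50027950-50028070, plus strand): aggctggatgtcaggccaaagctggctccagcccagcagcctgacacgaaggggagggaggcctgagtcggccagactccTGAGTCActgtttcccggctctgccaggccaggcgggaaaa
SMURF2 (chr17:64707266-64707386, plus strand): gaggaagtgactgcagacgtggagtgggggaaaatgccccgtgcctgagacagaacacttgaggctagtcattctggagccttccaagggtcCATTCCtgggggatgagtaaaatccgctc
NFIX (chr19:13037300-13037420, plus strand): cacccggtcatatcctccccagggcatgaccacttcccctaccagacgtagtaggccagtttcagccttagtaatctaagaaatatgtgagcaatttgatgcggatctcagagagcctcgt
SCAND3 (chr6:28710596-28710716, plus strand): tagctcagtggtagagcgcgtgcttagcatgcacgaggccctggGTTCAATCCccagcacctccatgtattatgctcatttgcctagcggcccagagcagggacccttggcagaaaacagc
MRPL39 (chr21:25350182-25350302, plus strand): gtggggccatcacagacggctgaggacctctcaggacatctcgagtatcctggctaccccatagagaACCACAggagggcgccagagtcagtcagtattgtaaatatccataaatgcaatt
MGAT4C (chr12:86138199-86138319, plus strand): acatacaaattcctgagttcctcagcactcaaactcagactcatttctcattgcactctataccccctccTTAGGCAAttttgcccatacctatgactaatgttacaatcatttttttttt
The HMGA2, PPP1R3C and SNAI1 members each hold an AP-1 match. The SMURF2 and PPP1R3C members hold a TEAD match, and the PPP1R3C member also holds a RUNX match. The SCAND3 member holds the B box core of a tRNA gene, an internal promoter element bound by the RNA polymerase III factor TFIIIC. The HMGA2 and MGAT4C members hold a CEBP match and the MRPL39 member a RUNX match, whereas the TRIO and NFIX members hold none of the letters searched.

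Clusters held a median of 9 and at most 30 regions. They spanned 16.6 to 125 kb with a median of 45.4 kb, and together covered 15.1 Mb. Neighbouring members lay a median of 4.41 kb apart, and a median of 9.27% of a cluster's span was accessible. There were 115 clusters of exactly 8 regions, and 168 groups of 7 regions fell just short of the rule. Of the regions in clusters of 8, 31.3% had a peak in all 6 libraries, against 34.3% in groups of 7. Members were a median of 372 bp wide, against 347 bp for the 56757 other distal regions and 594 bp for the 27465 regions within 2 kb of a TSS. Chromosome 1 held 39 clusters, chromosome 4 held 23, chromosome 10 held 22 and chromosome 20 held 21, while chromosome 13 held 3 and none was found on Y. Gene bodies held many of them: 54.6% of members lay in introns of protein-coding genes, against 44.5% of other distal regions, and 32.5% against 39.8% were intergenic.

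**Figure D1:**
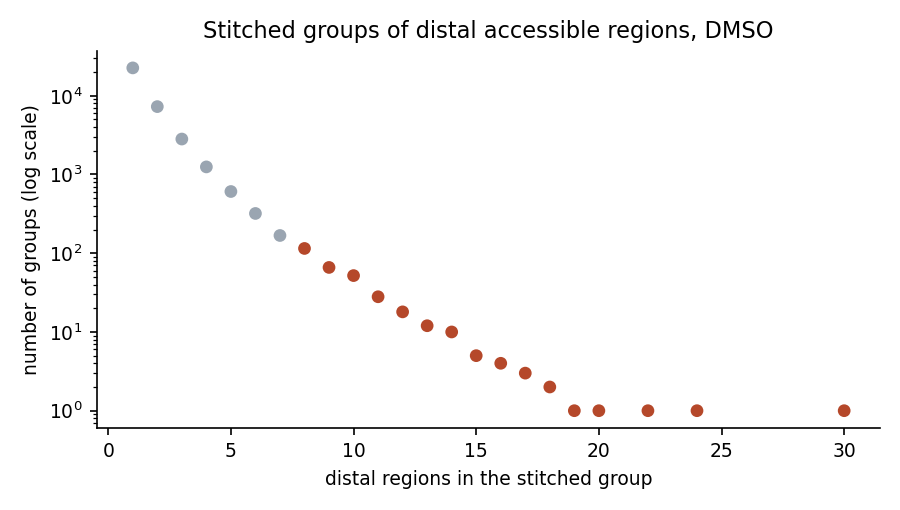
Number of stitched groups (log scale) by the number of distal regions they hold in the DMSO consensus set, with the clusters of 8 or more in red. The counts fall steadily from 22596 single regions to 168 groups of 7 and 115 of 8, with no break at the threshold, and end at 1 group of 30.

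The largest cluster, with 30 regions over 125 kb (chr5:14153163-14277937), lay within TRIO, which encodes a guanine nucleotide exchange factor. A group of 24 regions (chr21:25250185-25350602) lay in an lncRNA gene 257 kb from the nearest protein-coding TSS, that of the mitochondrial ribosomal gene MRPL39. The clusters nearest to ZNF184 (22 regions, chr6:27526565-27631887) and SCAND3 (20 regions, chr6:28673624-28771933) lay between genes. GLRA3, a glycine receptor subunit, had 19 regions (chr4:174649079-174711652). MAML3, a Notch coactivator, had 18 (chr4:140037431-140121920), as did PTPN1, a tyrosine phosphatase of insulin signalling (chr20:50423194-50499697). The embryonic chromatin protein gene HMGA2 (chr12:65876868-65986324), the polarity gene PARD3 (chr10:34684458-34763045) and PPP1R3C, a glycogen-targeting phosphatase subunit (chr10:91588146-91653946), had 17 each. SMURF2, a ubiquitin ligase of TGF-beta signalling (chr17:64664656-64740321), and the immediate early gene IER5 (chr1:181077337-181142766) had 16 each. A protein-coding TSS lay inside 122 of the 320 clusters, within 50 kb of 264, and more than 100 kb away from 30. The centre lay in a protein-coding gene for 186 clusters, only in an lncRNA gene for 34, and in no such gene for 100.

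The genes near the clusters included mesenchymal and YAP-TEAD genes. Of 20007 protein-coding genes, 844 (4.22%) had a TSS within 100 kb of a cluster, and of 126 listed genes 15 did (11.9%). The lists were chosen with earlier results of these data known, so these shares are a description without a test. Of 27 mesenchymal and matrix genes, 7 were near one, among them the basement membrane collagens COL4A1 and COL4A2, the matrix proteins SPARC and TGFBI, the tropomyosin TPM1 and the caveolin CAV1. Of 18 YAP-TEAD targets, 6 were: CRIM1, TGFB2, PTPN14, GADD45A, AMOTL2 and F3. The EMT factors contributed SNAI1 (1 of 7), and the TGF-beta pathway contributed the effector SMAD3 and the ligand TGFB2 (2 of 14). The listed genes of AP-1 and related factors (0 of 12), hepatocyte transcription factors (0 of 12), hepatocyte secreted proteins (0 of 14), menin-MLL1 and NF-Y (0 of 11), genes followed by the study (0 of 5) and lymphocytes (0 of 8) had none within 100 kb, though lists this short would hold few at the share of all genes. A consensus region lay within 1 kb of a TSS for 73.5% of all protein-coding genes. It did so for 26 of 27 mesenchymal genes, 18 of 18 YAP-TEAD targets, 11 of 12 AP-1 genes, 6 of 7 EMT factors, 13 of 14 TGF-beta genes, 11 of 11 menin-MLL1 and NF-Y genes and 5 of 5 genes followed by the study. The numbers were 8 of 12 for hepatocyte factors, 4 of 14 for hepatocyte secreted proteins and 1 of 8 for lymphocyte genes. Among clusters near the listed genes, COL4A2 had 15 regions at 5.02 kb from its TSS, of which 12, 15 and 14 had a peak in DMSO and 12, 13 and 3 in SNDX-5613. At AMOTL2, a YAP regulator, 8, 8 and 10 of 11 regions were called in DMSO and 10, 9 and 3 in SNDX-5613. In both clusters SNDX-5613 replicates 1 and 2 lay close to the DMSO libraries and SNDX-5613 replicate 3 was low.

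AP-1 matches were more frequent in members than in other distal regions, and CTCF matches were fewer. Motifs were searched on both strands within 100 bp of the strongest summit: AP-1 as TGANTCA, TEAD as CATTCC, NF-Y as CCAAT, GATA as AGATAA, RUNX as TGTGGT, CEBP as TTGCNNAA, and CTCF by the core of its longer consensus. AP-1 was found in 29.0% of members, 23.1% of other distal regions, 11.2% of regions within 2 kb of a TSS and 19.6% of all consensus regions. CTCF was found in 2.97% of members, 8.42% of other distal regions, 5.53% of regions within 2 kb of a TSS and 7.31% of all regions. TEAD matches stood at 20.6%, 17.8% and 11.1% in members, other distal regions and regions near a TSS. NF-Y (23.8%, 24.4% and 26.9%), GATA (7.45%, 7.97% and 3.67%), RUNX (17.4%, 16.2% and 9.50%) and CEBP (8.64%, 8.60% and 5.05%) were close between members and other distal regions. Over all consensus regions the shares were 15.8% for TEAD, 25.2% for NF-Y, 6.60% for GATA, 14.1% for RUNX and 7.49% for CEBP. The shares followed the number of neighbours: AP-1 was found in 20.5% of single distal regions, 23.5% in groups of 2 to 3, 27.3% in groups of 4 to 7, 28.7% in clusters of 8 to 10 and 29.6% in larger clusters. CTCF stood at 9.78%, 8.11%, 6.31%, 3.59% and 1.89% in the same order. Median GC content in the window was 50.2% in members and 49.8% in other distal regions. At least 1 AP-1 match was present in 296 of 320 clusters, with a median of 3 such members per cluster and at most 9. Regions are not replicates, so these shares are descriptions without a test.

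**Figure D2:**
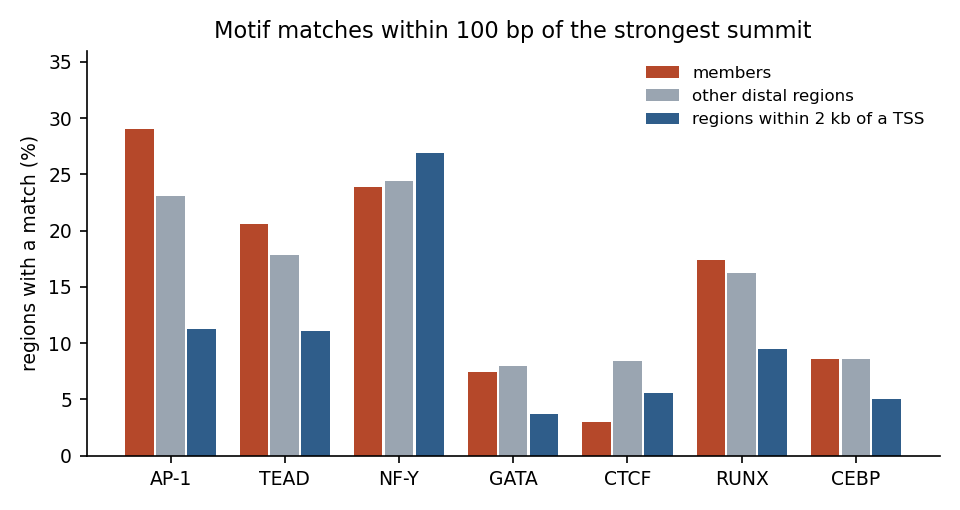
Percent of regions with a motif match within 100 bp of the strongest summit, for members (red), other distal regions (grey) and regions within 2 kb of a TSS (blue). The AP-1 bars stand at 29.0%, 23.1% and 11.2%, and the CTCF bars at 2.97%, 8.42% and 5.53%.

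Among ranked members, those with a CTCF match had higher median ranks than the rest. Ranks are percentiles among the 33209 consensus regions that had a peak in all 6 libraries, ordered by the highest −log10 p in each library, with 100 the strongest. Of the 95 members with a CTCF match, 52 entered this ranking. Their median ranks were 50.5, 52.0 and 56.5 in DMSO and 53.2, 53.2 and 53.3 in SNDX-5613. The 942 ranked members without a match had medians of 34.2, 34.8 and 35.9 in DMSO and 35.5, 33.7 and 35.1 in SNDX-5613. Members with and without an AP-1 match did not stand apart in rank: the medians were 35.7, 37.8 and 37.2 in DMSO and 38.7, 34.3 and 35.4 in SNDX-5613 for the 353 with one, and 35.0, 34.9 and 36.9 against 35.6, 35.6 and 36.5 for the 641 without. In SNDX-5613 a peak was called at 83.7%, 80.1% and 39.3% of the 928 members with an AP-1 match and at 80.1%, 76.5% and 29.3% of the 2267 without.

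Some clusters were built on tRNA genes, short genes that RNA polymerase III transcribes from internal promoters. The rule excluded TSSs of protein-coding and lncRNA genes only, so tRNA genes counted as distal. In RefSeq, 79 of 443 tRNA genes lay in 11 clusters, 5 of them on chromosome 6 next to ZNF184, SCAND3, TRIM27, POM121L2 and H4C8. A tRNA gene overlapped 57 members (1.78%) and 0.231% of other distal regions. The B box core GTTCNANNC was matched in 93.0% of these 57 members, 8.64% of all members, 5.74% of other distal regions and 5.57% of all regions. None of the 57 had an AP-1 match in the window. The ZNF184 cluster holds 14 tRNA genes, with 20, 21 and 20 of 22 regions called in DMSO and 21, 21 and 14 in SNDX-5613. Its median rank was 64.6, 64.3 and 62.8 in DMSO and 58.3, 65.6 and 50.6 in SNDX-5613. The SCAND3 cluster holds 11 tRNA genes, with median ranks of 75.9, 75.8 and 72.5 in DMSO and 75.8, 72.0 and 76.9 in SNDX-5613. In both, the ranks of the treatments overlapped, and they lay well above the median of all ranked members given below. This did not hold for every tRNA cluster. The cluster at OR2V1, with 4 tRNA genes, had 13.2, 8.94 and 10.8 in DMSO and 14.0, 18.8 and 14.5 in SNDX-5613. A further 15 clusters held 18 microRNA genes, among them MIR29A and MIR29B1 (14 regions, chr7:130865477), MIR23A, MIR24-2 and MIR27A (14 regions, chr19:13825379) and MIR145 (12 regions, chr5:149430356).

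Members were called about as often as other distal regions in every library. A peak overlapped 83.1%, 93.3% and 88.4% of members in the DMSO libraries (replicates 1, 2 and 3 in this order throughout), and 81.1%, 77.5% and 32.2% of them after SNDX-5613. The other distal regions stood at 81.5%, 93.7% and 84.8% in DMSO and at 84.5%, 78.1% and 30.3% in SNDX-5613. SNDX-5613 replicate 3 was low in both classes, and its list was the shortest, with 40568 peak regions against 88026 to 113675 in the others. Its genome-wide background pileup, a relative measure of depth solved from the peak values, was 0.211 against 0.997 to 1.51. The group means for members were 88.3% ± 5.07 in DMSO and 63.6% ± 27.2 in SNDX-5613 (SD, n = 3 each), and for other distal regions 86.7% ± 6.30 and 64.3% ± 29.6. Since the DMSO set chose the regions, no test was made between treatments. The members' difference in means (SNDX-5613 minus DMSO) was −24.6 points, −8.93 points without SNDX-5613 replicate 3 and −1.83 points when equal numbers of regions were kept per library. Within the SNDX-5613 libraries, members minus other distal regions came to −3.36, −0.544 and 1.98 points, a mean of −0.642 (SD 2.67, n = 3). An exact two-sided sign-flip permutation test gave p = 0.75 (adjusted 0.75 over 4 tests), where 3 libraries cannot go below 0.25. This mean was 0.717 points without SNDX-5613 replicate 1. In all 3 DMSO and no SNDX-5613 library a peak was found at 110 members (3.44%) and at 2.35% of other distal regions. A peak in all 6 libraries was found at 994 members (31.1%), at 28.3% of other distal regions and at 58.7% of regions within 2 kb of a TSS.

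**Figure D3:**
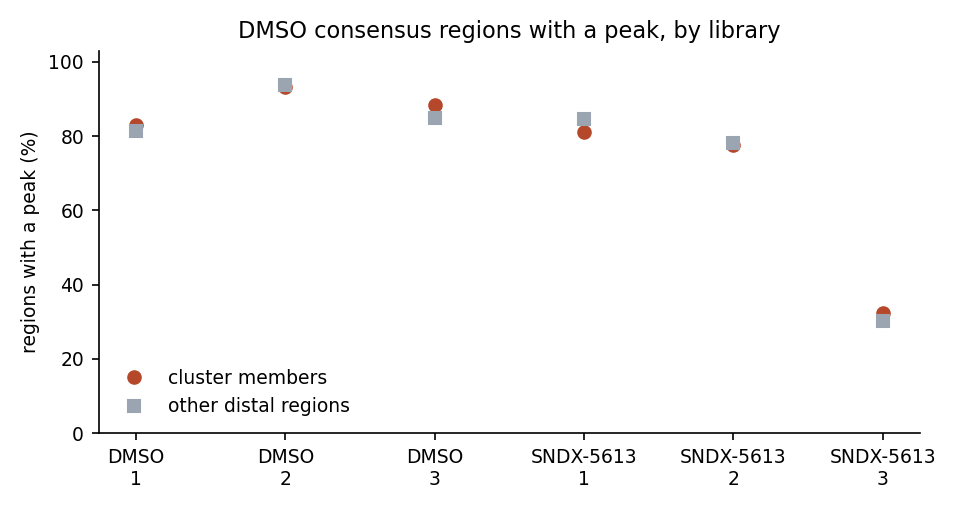
Percent of cluster members (circles) and other distal regions (squares) of the DMSO consensus set with a peak in each library. Both classes lie between 77.5% and 93.7% in 5 libraries and near 30% to 32% in SNDX-5613 replicate 3.

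Some clusters had far fewer members called in SNDX-5613 than in DMSO. They were chosen after the values were seen, as clusters in which the mean share of members called in DMSO exceeded that in SNDX-5613 replicates 1 and 2 by at least 30 points with no overlap between these 5 libraries. There were 21 such clusters (6.56% of 320) with 238 members, against a median drop over all clusters of 6.25 points. The criterion was not applied to stitched groups outside the clusters, so no such share is given for them. The drops had no gap at this limit: the lowest among the 21 clusters was 30 points and the highest among the others 29.6. Since loss of calls chose the 21 clusters, the values below are a description. Of their 238 members, 186, 220 and 207 were called in DMSO and 98, 93 and 28 in SNDX-5613, whereas the members of the other 299 clusters were called at 83.5%, 93.3% and 88.5% in DMSO and 84.3%, 80.6% and 33.9% in SNDX-5613. Counting every peak within their spans, also those outside the DMSO consensus set, gave 23.4, 27.6 and 24.6 peaks per 100 kb in DMSO and 11.4, 10.7 and 2.87 in SNDX-5613. The other clusters had 21.0, 24.1 and 22.2 in DMSO and 21.3, 19.9 and 8.29 in SNDX-5613.

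The cluster within MGAT4C, a gene of the N-acetylglucosaminyltransferase family, had the largest drop in calls. Of its 12 regions (chr12:86103103-86159225), 11, 12 and 12 were called in DMSO and 4, 1 and 1 in SNDX-5613. On chromosome 21, 5 of the 6 clusters fell in the group. DNA copy number was not analysed here, so fewer open copies and fewer DNA copies at a position cannot be told apart. The cluster in the neural adhesion gene NCAM2 (8 regions, chr21:21084030-21111866) had 6, 8 and 7 called in DMSO and 2, 0 and 0 in SNDX-5613. Of the 24 regions nearest to MRPL39, 17, 23 and 22 were called in DMSO and 7, 9 and 3 in SNDX-5613, and 10 regions just before them (chr21:25170287-25197545) went from 7, 9 and 8 to 2, 0 and 0. In each of these clusters all DMSO libraries lay above SNDX-5613 replicates 1 and 2, as the criterion required, and above the shallow replicate 3. The others included clusters in or near the protocadherin genes PCDH11X (7, 9 and 7 of 9 in DMSO, 3, 3 and 3 in SNDX-5613) and PCDH15 (7, 9 and 8 of 10, then 2, 4 and 0). A cluster in the scaffold gene ANK3 (11, 12 and 12 of 13, then 5, 5 and 1) and one near the fibrillar collagen gene COL11A1 (12, 12 and 12 of 13, then 6, 8 and 2) followed, as did GLRA3 (13, 17 and 17 of 19, then 9, 9 and 2). Another ANK3 cluster (10 regions, chr10:60282097) did not meet the criterion. It had 6, 9 and 10 called in DMSO and 7, 6 and 0 in SNDX-5613. For 11 of the 21 clusters the nearest protein-coding TSS lay over 100 kb away, against 19 of the other 299.

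The members of these 21 clusters were weak in DMSO. Ranked among all consensus regions with a peak in the same library, their cluster medians in DMSO ran from 10.9 to 38.1 with a median of 20.6, against 43.3 for the other clusters. The local background over the genome-wide background was 1.67 at these clusters and 3.15 at the others (medians). Median GC content was 45.8% against 50.7%, an AP-1 match was found in 18.9% against 29.9% of members, and a CTCF match in 0.420% against 3.18%. The gap in calls was found at all DMSO ranks under 60, with the caveat that the same SNDX-5613 replicates 1 and 2 chose the clusters. At DMSO ranks under 20, these replicates called 24.6% and 26.2% of 126 members, against 61.5% and 55.8% of 832 members of the other clusters. At ranks of 20 to 40 they called 46.3% and 44.8% of 67, against 85.2% and 79.7% of 714, and at 40 to 60 they called 71.9% and 53.1% of 32, against 97.0% and 93.6% of 559. Other distal regions stood at 64.6% and 57.3% under a rank of 20 and at 83.8% and 73.0% at 20 to 40. At 40 to 60 they stood at 95.2% and 88.8%. Above a rank of 60, all 13 members of the 21 clusters were called in both replicates. Each replicate also called 99.6% to 100% of the members of the other clusters there. With the 88026 strongest regions kept in each of the 5 deeper libraries, 22 clusters met the criterion, 18 of them among the 21. Leaving out DMSO replicate 1 gave 32. The same criterion turned round, on clusters built from the SNDX-5613 consensus set, found 2 of 245 (0.816%). The first of these was near the chloride channel gene ANO1 (2, 4 and 2 of 8 regions called in DMSO, 6, 6 and 1 in SNDX-5613), and the other near ALG10 (4, 5 and 6 of 10, then 7, 9 and 0). The median gain over the 245 clusters was below the median drop of 6.25 points over the 320. The limit of 30 points therefore lay farther from the median on this side. The part of signal strength and local background in the loss of calls was not tested.

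**Figure D4:**
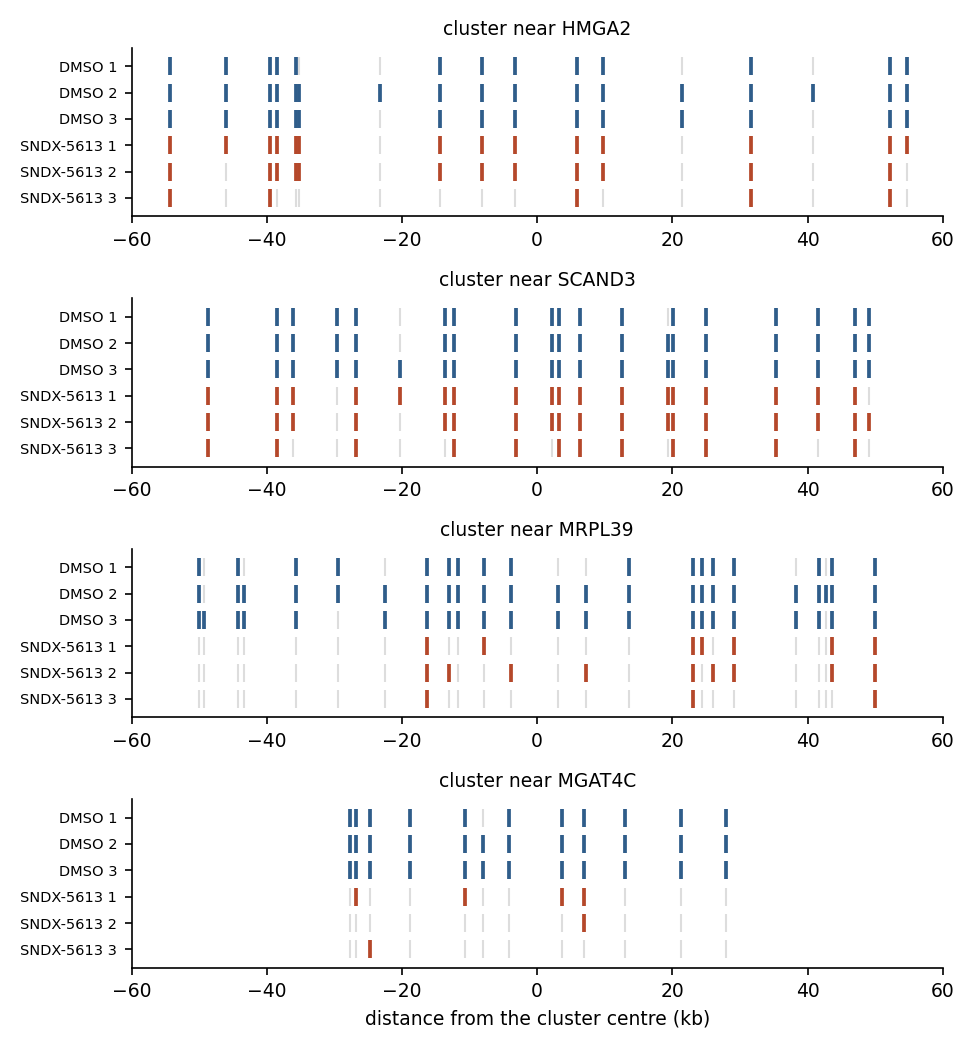
Members of 4 clusters by distance from the cluster centre (kb), with 1 row per library and a coloured tick where a peak was called (blue DMSO, red SNDX-5613, grey no peak). The SCAND3 cluster keeps 18 of 20 members in SNDX-5613 replicates 1 and 2 and the HMGA2 cluster 14 and 12 of 17, whereas MRPL39 keeps 7 and 9 of 24 and MGAT4C 4 and 1 of 12.

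In rank, the sign-flip permutation test could not separate members from other distal regions, since with 3 libraries its smallest possible p is 0.25. Among regions with a peak in all 6 libraries, the members' median rank was 35.2, 36.5 and 37.0 in DMSO and 36.6, 35.1 and 35.9 in SNDX-5613. Other distal regions had medians of 34.7, 34.9 and 34.8 in DMSO and 35.0, 34.9 and 35.7 in SNDX-5613, while regions within 2 kb of a TSS had medians of 70.2 to 72.1. The difference in the SNDX-5613 libraries averaged 0.669 points (SD 0.840, n = 3, exact sign-flip permutation p = 0.25, adjusted 0.5), with members higher in 3 of 3 libraries. Without SNDX-5613 replicate 3 it was −2.17 points, at a −log10 q of at least 3 it was 2.12, with 50% cover 1.87 and with all regions stitched 3.89. It also depended on the measure: ordered by the authors' fold enrichment over local background, members lay 14.2 points below other distal regions. The local background at members was 2.97 to 3.80 times the genome-wide level, against 1.31 to 2.00 times at other distal regions, and its part in the change of sign was not tested. Between treatments the members' median rank was 36.2 ± 0.945 in DMSO and 35.9 ± 0.773 in SNDX-5613 (SD, n = 3 each). This shift of −0.349 points was within the spread between libraries (exact permutation p = 0.7, adjusted 0.75, smallest possible 0.1). It was 0.00437 points without DMSO replicate 3 and −1.42 without SNDX-5613 replicate 3. With equal numbers of regions it was −1.45, with 50% cover −1.52 and with all regions stitched −1.28, each at an exact permutation p of 0.1. With members that lack a peak placed at the bottom rank, which lets the shallow library and the choice from the DMSO set enter, it was −4.81 (exact permutation p = 0.1).

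Ranks of single members separated by treatment about as often as those of consensus regions at large. For 80 of 994 ranked members (8.05%) every SNDX-5613 rank exceeded every DMSO rank, and for 92 (9.26%) every one was lower. Over all 33209 ranked regions these shares were 8.49% and 8.07%, and over the 16082 other distal regions 9.42% and 7.85%. Leaving out a library loosens this criterion and also changes how many members are ranked. The counts were 269 and 343 without SNDX-5613 replicate 3, and 118 to 145 and 117 to 150 without any other single library. Shares over all regions are not given for these settings, so the counts cannot be set against the shares above. Of the 320 clusters, 111 had at least 4 ranked members, and their median rank was higher in all SNDX-5613 libraries for 11 (9.91%) and lower for 11 (9.91%). In 102 stitched groups of fewer than 8 regions with 4 or more ranked regions, the shares were 4.9% and 15.7%.

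The cluster within NFIX, a nuclear factor I transcription factor gene (chr19:13030014-13061635), had the largest difference in rank of these 111. Its median rank over 5 ranked members was 26.3, 29.1 and 24.5 in DMSO and 48.7, 44.3 and 55.3 in SNDX-5613, a difference of 22.8 points. The PPP1R3C cluster had 27.7, 31.7 and 35.6 in DMSO and 38.6, 41.4 and 49.9 in SNDX-5613. The cluster around SNAI1, a repressor of epithelial genes (chr20:49979054-50055410), had 11.3, 14.0 and 16.3 in DMSO and 18.1, 19.2 and 33.2 in SNDX-5613. All 3 lay higher in every SNDX-5613 library. CCNE1, the cyclin E1 gene, and CACNG6, a calcium channel subunit gene, were 10.7 and 9.50 points higher. On the other side, the cluster 70.4 kb from DUSP5, a phosphatase of ERK kinases (chr10:110395811-110427489), had 47.8, 41.5 and 51.0 in DMSO and 38.6, 35.1 and 33.6 in SNDX-5613. All SNDX-5613 libraries lay below all DMSO libraries. MAML3, JADE2 and LIN28A, the last of which encodes an RNA-binding protein of early development, had clusters with differences of −10.8, −10.7 and −10.0 points. The SMURF2 cluster, among the largest, also lay lower, at 27.0, 25.8 and 25.5 in DMSO and 13.8, 14.3 and 24.0 in SNDX-5613. Each cluster median rests on 4 to 7 ranked members, and the clusters were picked for this difference, so it carries no test.

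**Figure D5:**
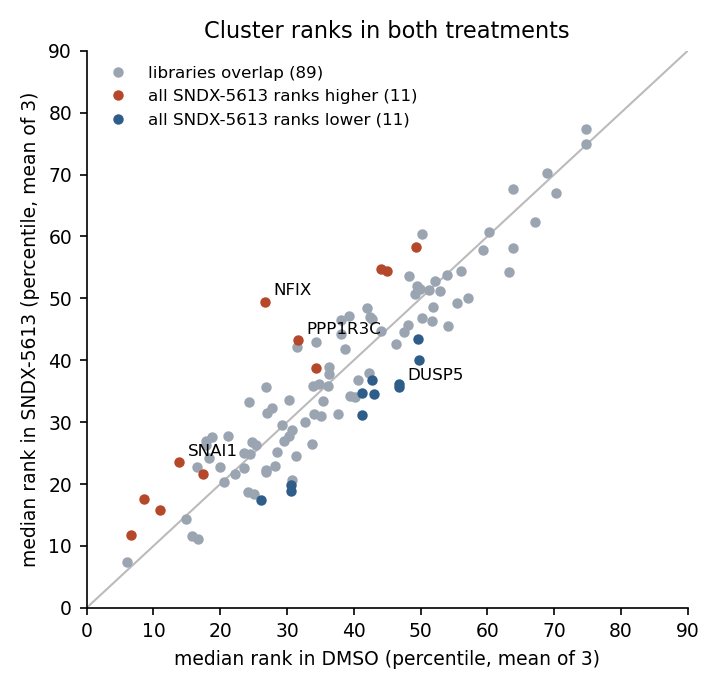
Median rank percentile of 111 clusters in DMSO (x axis) and SNDX-5613 (y axis), each the mean of 3 libraries, with the line of equality in grey. Clusters whose libraries do not overlap between treatments are coloured (11 higher in red, 11 lower in blue), and NFIX lies farthest above the line with 26.6 and 49.5.

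The share of the strongest regions that members took up was compared at equal numbers of regions, which does not equalise depth. Of the 40568 strongest regions of each library, 2.85%, 2.96% and 2.92% overlapped a member in DMSO and 2.83%, 2.83% and 2.66% in SNDX-5613. The means were 2.91% ± 0.0571 and 2.77% ± 0.0990 (SD, n = 3 each), and all SNDX-5613 libraries lay below all DMSO libraries. The difference of −0.134 points had the smallest p that the exact permutation test allows (0.1, adjusted 0.4), which is above the usual threshold. It was −0.0768 points without SNDX-5613 replicate 3 and 0.165 points when regions were ordered by fold enrichment. The members themselves came from the DMSO set, which favours a higher share in DMSO. This test therefore cannot decide whether the share differed between treatments.

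Applied to the SNDX-5613 consensus set, the rule found 245 clusters with 2399 members among 59079 distal regions. Of the 320 DMSO clusters, 180 (56.3%) overlapped one of them, and 178 of the 245 (72.7%) overlapped a DMSO cluster. In 108 DMSO clusters the largest SNDX-5613 group inside had 5 to 7 regions, just short of the rule, and in 32 it had fewer than 5. A region of the SNDX-5613 set overlapped 83.8% of members and 86.0% of other distal regions. Fewer SNDX-5613 than DMSO regions lay within 219 clusters, more within 27, and equal numbers within 74. The DMSO clusters were chosen for their number of DMSO regions, and in the 67 clusters found only from the SNDX-5613 set, 63 held fewer DMSO regions. Each treatment has only 1 consensus set, so these counts have no replicate error.

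The promoters of the nearest genes, which the rule left out, gave a further reading. The 320 clusters had 300 distinct nearest protein-coding genes, of which 231 had a promoter region with a peak in all 6 libraries. Their median rank was 69.5 to 71.2 across the 6 libraries, below the 78.8 to 80.1 of 10958 other promoters. It differed by 0.287 points between treatments (SNDX-5613 minus DMSO, exact permutation p = 0.6, not among the 4 adjusted tests). All SNDX-5613 ranks were higher for 17 of these promoters (7.36%) and lower for 29 (12.6%), against 7.22% and 7.61% of the others.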

How the data were processed

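ATAC-seq peak lists of 6 HLF libraries (3 DMSO, 3 SNDX-5613, grouped by their labels) and 1 consensus set per treatment were used. Per the study's methods, the authors used the Omni-ATAC protocol, Bowtie2 alignment to hg38, Picard and an RMSPC consensus. MACS2 with summit calling is stated for a related assay. The submitters' processing notes name Trim Galore 0.6.7, Bowtie2 2.3.4.1, Picard 2.20.0 and deepTools 3.5.4. Handling of the Tn5 offset and of blacklisted sequence is not given in the sources used here. Read numbers were not used, so depth was known only through the lists.

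The deposited lists give the authors' fold enrichment over local background, −log10 p and −log10 q per summit. The deposited consensus sets give a combined −log10 p as a score, which reached its ceiling in many regions and was not used for ranks. Summits that share a region were merged with their highest value.

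The rule was applied with GENCODE release 44 on chromosomes 1 to 22, X and Y, and 0 summits lay past a chromosome end. Presence needed an overlap of 1 bp. Local background was solved from the fold and −log10 p of each summit, and its window may take in neighbouring peaks. Exact two-sided permutation tests ran over libraries, adjusted by Benjamini-Hochberg over 4 tests. Clusters were named as the 12 largest, up to 5 rises and 5 falls with libraries that did not overlap, and listed genes within 100 kb. The results of 2 such genes are not reported here. The groups of tRNA clusters and of clusters with fewer calls, with the B box motif, were added after the values were seen. The members and lists were chosen with earlier results of these data known. Code was tested on simulated data (Python 3.11.15, numpy, pandas). The alternatives were fold ranks, −log10 q of at least 3, 50% cover, equal numbers, TSSs of genes only, stitching of all regions, other limits of size and distance, and each library left out. Same-numbered replicates did not deviate together (correlations 0.0302, −0.00016 and 0.0183), and the methods' shared dish was not tied to these numbers, so the main tests use no pairing and a blocked fit was an alternative.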

Additional observations from a re-analysis of the deposited data

How the results depend on the processing

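Depth limits the comparisons: SNDX-5613 replicate 3 is shallow, and only strong regions enter ranks over all 6 libraries. Ranking by fold enrichment turned 3 values: members lay 14.2 points lower than other distal regions in SNDX-5613 (a difference of −14.2), the rank shift became 3.14 and the difference in the share of the strongest regions 0.165 points. With TSSs of genes only, there were 499 clusters with 5113 members, 418 SNDX-5613 clusters, 26 listed and 1443 protein-coding genes nearby and 129 and 164 members with higher and lower ranks, the SNDX-5613 presence difference was 0.449 points and the CEBP difference −0.212 points. With all regions stitched, these were 1058, 7552, 970, 40, 4513, 195, 231, 1.77 and −0.968, while the RUNX difference was −0.702 and the AP-1 excess 3.51 points, against 5.99 as reported. Clusters of 7 or more numbered 488, and 511 genes lay within 50 kb. A cover of 50% left 27 higher and 29 lower members. For such counts, here and below, the number of ranked members changes with the setting. Their shares over all regions are not given, so they cannot be compared with the reported shares. With equal numbers of regions the presence difference between treatments was −1.83 points and 47 members were lower. The cause of these changes was not tested.

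Leaving out each replicate gave 118 to 269 higher and 117 to 343 lower members, a presence difference between treatments of −33.4 to −8.93 points, a difference from other distal regions of −1.95 to 0.717 points in presence and −2.17 to 1.06 in rank, and rank shifts of −1.42 to 0.00437. Clusters with fewer calls numbered 18 to 32, 43 and 12 at limits of 20 and 40 points, and 46 with all 3 SNDX-5613 libraries. With a replicate block the rank shift of −0.349 had an exact p of 1 and the strongest-region difference of −0.134 an exact p of 0.25, which changed no call. In all, 11 values turned in sign over the alternatives run.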
